A study of Mus musculus with 6 samples.

Results

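The genes described here are 38 genes of smooth muscle contraction and of the erectile tissue of the penis, taken by symbol from a count table of 24063 gene symbols in mouse penile tumors and normal penis. The list was drawn up by function, with earlier results of these data known. It covers the actomyosin motor and its switch, the thin filament, the dense bodies and intermediate filaments, small heat shock proteins, transcription factors, ion channels, nitric oxide and cyclic GMP signaling, and receptors. The 3 SA mice (PB-Cre+ Smad4L/L ApcL/L) formed penile tumors spontaneously, without any carcinogen. In these mice the floxed Smad4 and Apc alleles are deleted by a Cre whose probasin promoter is responsive to androgen and acts in epithelium, so the deletion is not directed at smooth muscle. The 3 WT mice were C57BL/6 animals that gave normal penile epithelium, all mice of both groups were 5 months old, and the strain background of the SA mice is not given in the sources used here. Total RNA of fresh tissue, from 1 mouse a library, was sequenced as stranded read pairs of 76 nucleotides.

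The penis is built around erectile tissue, in which smooth muscle bundles line vascular spaces and, when they relax, let blood fill them. Contraction starts when calcium enters through voltage-gated channels or is released by receptors for noradrenaline and endothelin. Calcium activates myosin light chain kinase, which switches on smooth muscle myosin, and myosin phosphatase switches it off. Nitric oxide relaxes the same cells by activating soluble guanylate cyclase, whose product cyclic GMP activates protein kinase G and is broken down by phosphodiesterase 5. Many genes of the contractile apparatus are driven by serum response factor and its partner myocardin through a promoter element called the CArG box.

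The tissue was labelled as penile epithelium, yet smooth muscle transcripts were abundant in the WT samples. In TPM, a unit that corrects counts for transcript length and library size, Myl9 stood at 343.6 ± 46.5 (SD, n = 3), Acta2 at 286 ± 37.5 and Myh11 at 137 ± 30.9. Together the 38 genes held 0.430%, 0.406% and 0.522% of all gene counts in the 3 WT libraries. In the 3 SA libraries they held 0.200%, 0.212% and 0.256%. In bulk tissue, fewer cells of a type and less RNA per cell cannot be told apart, and this holds for every decrease given here. The SA samples were penile tumors and the WT samples were normal penile epithelium. How either tissue was dissected is not stated in the sources used here. A difference in the tissue that was taken therefore cannot be told apart from a change in the tumors.

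The libraries held between 23828283 and 110509147 gene counts, and SA replicate 3 was the deepest. A level of 3 counts, taken as the floor, lay between 0.0244 and 0.137 CPM, the count scaled by TMM to a common library size, which covers counting error only. All 38 genes passed the filter on low counts, which kept 16336 genes. The median log2 fold change between SA tumors and WT penises over all genes tested was 0.03. It was 0.31 when libraries were scaled by their totals instead of TMM, and the share of called genes that were lower in SA tumors then fell from 46.6% to 25.6%. Counts over Smad4, one of the genes floxed in the SA mice, were 61.2, 69.7 and 72.5 CPM in WT penises and 36.6, 36.1 and 46.1 CPM in SA tumors. The second floxed gene, Apc, had 62.5, 85.3 and 91.1 CPM in WT penises and 253, 194 and 197 CPM in SA tumors. Counts over a whole transcript do not check the loss of a floxed exon.

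Promoter sequences are shown for 4 of the genes, since the CArG box is the element that ties the contractile genes to serum response factor. RefSeq held a promoter entry (build GRCm38.p6, the assembly that mm10 denotes) for 31 of the 38 genes, and the 250 bases before each start site were searched on that strand, which suffices because the element reads alike on both. Actg2, Myh11, Tagln, Nexn, Myocd, Adra1a and Adra1d had no entry. Capitals mark CArG boxes or the same 10 bases with 1 G or C in the centre, written 5′ to 3′ on the strand of the gene. The first, for the vascular smooth muscle actin Acta2, is 30 bases at chr19:34255438-34255467 on the minus strand, 94 to 65 bases before the start site and inside an exon of a longer annotated transcript. Those for the regulatory light chain gene Myl9 (chr2:156775214-156775407, plus strand) and for the dense body gene Pdlim3 (chr8:45885237-45885460, plus strand) run from 250 bases before the start site to the first annotated exon. The stretch for Srf, which encodes serum response factor itself, is at chr17:46556215-46556244 on the minus strand and holds a pair of CArG boxes 82 to 53 bases before the start site. Acta2 had a further match with 1 G or C, which began 34 bases before its start site and is not shown.
Acta2: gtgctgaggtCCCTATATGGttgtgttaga
Myl9: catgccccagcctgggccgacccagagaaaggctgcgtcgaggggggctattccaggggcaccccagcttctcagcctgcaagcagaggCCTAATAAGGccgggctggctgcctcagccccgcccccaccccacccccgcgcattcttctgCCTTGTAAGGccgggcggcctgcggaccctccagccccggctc
Pdlim3: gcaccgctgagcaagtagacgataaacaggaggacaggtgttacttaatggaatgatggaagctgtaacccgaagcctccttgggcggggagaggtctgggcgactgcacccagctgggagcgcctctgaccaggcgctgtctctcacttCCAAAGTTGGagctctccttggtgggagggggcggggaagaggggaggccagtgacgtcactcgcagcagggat
Srf: CCATATAAGGagcggcctcgCCATAAAAGG

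The exact CArG box was present in 2 of the 31 genes with an entry, Myl9 and Srf, which is 6.45% of them, against 1.62% of the 27025 genes with a promoter entry. With 1 G or C allowed in the centre it was present in 7 (22.6%), namely Acta2, Myl9, Synm, Pdlim3, Hspb6, Srf and Cacna1c, against 9.78% of all genes. These 7 did not all move together in the SA tumors: Acta2, Myl9, Synm, Pdlim3 and Hspb6 were lower, Cacna1c was higher, and Srf did not pass the test. A match of letters is a description and not a binding site.

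Most of the 38 genes were lower in the SA tumors, and Cnn1, Myh11 and Actg2 had the lowest fold changes. At an adjusted p-value under 0.01, 24 of 38 were lower and 3 were higher, and 11 did not pass. Over all 16336 genes tested, 17.5% were lower and 20.1% were higher at the same threshold. Since the list was chosen with earlier results known, such comparisons describe it and do not test it. When the log2 fold change also had to be -2 or less, or 2 or more, 19 of the 38 were lower and 0 were higher, where 3.59% and 9.41% of all genes were. All SA tumors lay below all WT penises in 28 of the 38 genes and above them in 3, and the groups overlapped in 7. Over all genes these arrangements were found in 30.7% (SA below) and 32.7% (SA above). The median log2 fold change of the 38 was -2.07, with a range of -5.18 to 1.14, and 12 genes lay below -3. The 3 genes that rose were the L-type calcium channel gene Cacna1c, the phosphodiesterase gene Pde5a and the LIM protein gene Pdlim7.

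**Figure D1:**
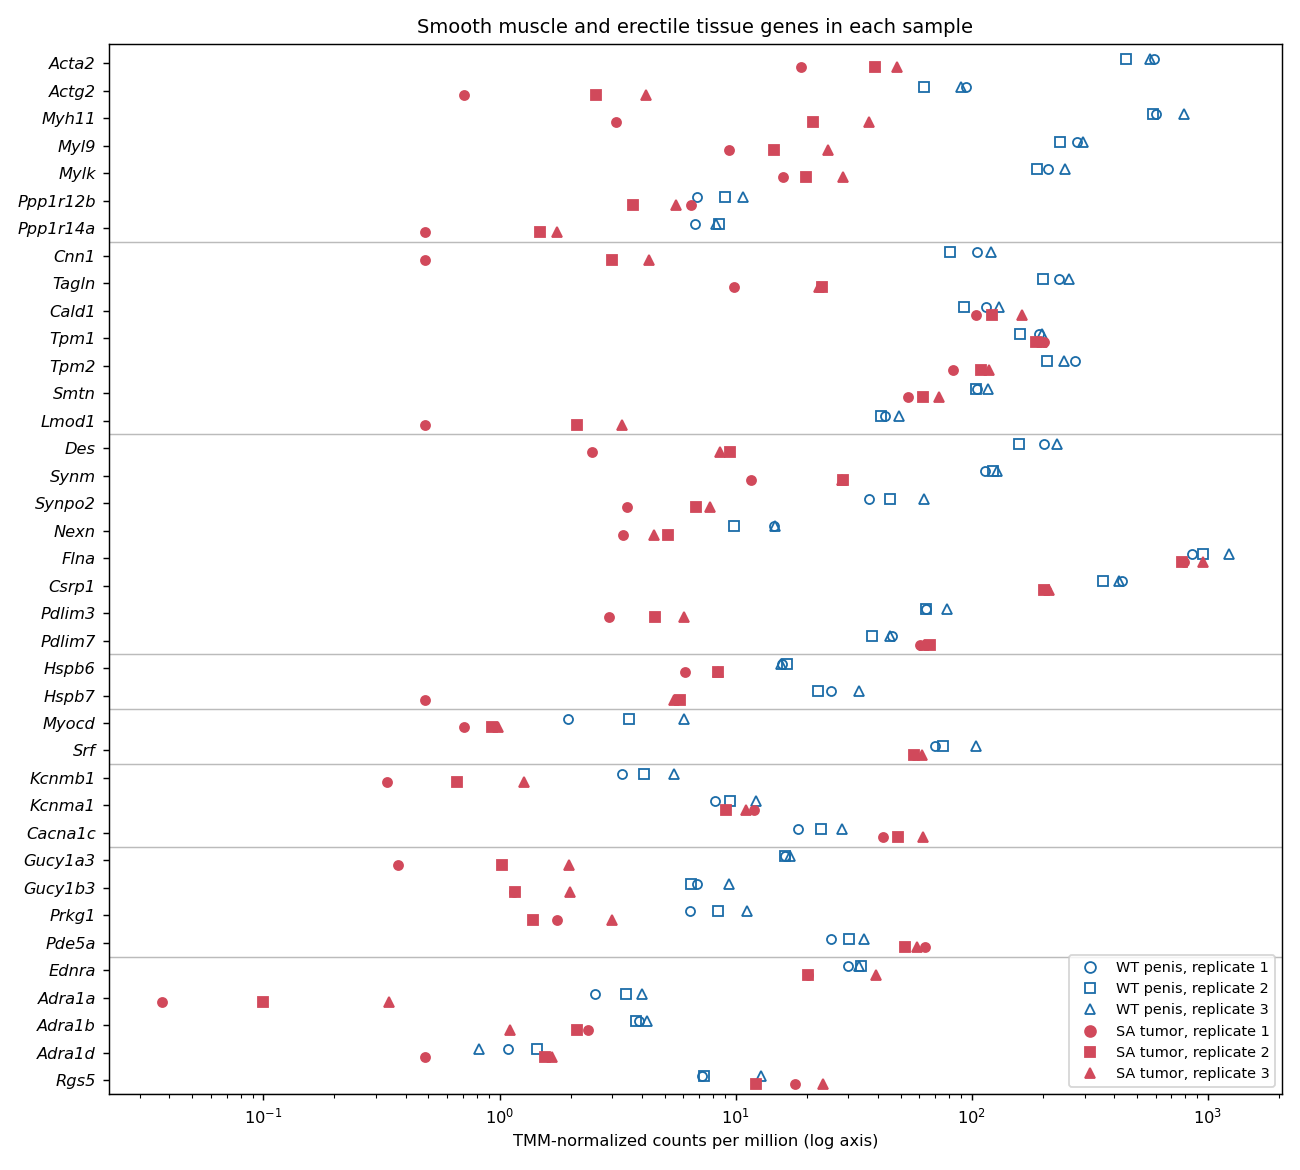
TMM-normalized counts (CPM) on a log axis for each of the 38 genes (rows, grouped by role) in the 3 WT penises (open blue) and the 3 SA tumors (filled red), with 1 marker shape for each replicate number. Myh11, Cnn1, Actg2 and Des stand far apart between the groups, and Tpm1, Cald1, Flna and Kcnma1 overlap.

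The motor and its switch had the lowest median of the 8 role groups. Of 7 genes, 6 were lower past both thresholds, and the median log2 fold change was -3.92. Myh11 (NM_013607, chromosome 16, 14194527 to 14292188, mm10), the smooth muscle myosin heavy chain and a marker of the mature cell, was at 600.5, 586 and 794 CPM in WT penises and at 3.12, 21.3 and 36.7 CPM in SA tumors. Every SA tumor was far below every WT penis, but the SA tumors themselves were spread widely, with replicate 1 lowest. Its log2 fold change was -5.00 (standard error, SE, 0.846; adjusted p = 0.00320). This call was lost without SA replicate 2 (adjusted p = 0.0145), WT replicate 2 (0.0160) or WT replicate 3 (0.0212), while the log2 fold change stayed at -4.86 or below. It was also lost with replicate number as a block (adjusted p = 0.0120) and with no filter on low counts (adjusted p = 0.0139).

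Acta2 (NM_007392, chromosome 19, 34240336 to 34255585) encodes the smooth muscle actin that vascular smooth muscle and activated fibroblasts share. It was at 593, 451 and 567 CPM in WT penises and at 19.0, 38.7 and 48.3 CPM in SA tumors. No SA tumor came near the WT range, and the group means differed 15.2-fold. The log2 fold change was -3.92 (SE 0.350, adjusted p = 0.000103). Actg2, the enteric smooth muscle actin, was less abundant and fell further. Its levels were 94.5, 62.7 and 90.3 CPM in WT penises and 0.706, 2.55 and 4.18 CPM in SA tumors, a log2 fold change of -4.94 (SE 0.545, adjusted p = 0.000429). The coding sequences of the actins are close to each other, as are those of Myl9, Myl12a and Myl12b, so reads could be shared among them.

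Myl9 (NM_172118, chromosome 2, 156775408 to 156781657), the regulatory light chain that the kinase phosphorylates, had 280.0, 236 and 297 CPM in WT penises and 9.40, 14.5 and 24.7 CPM in SA tumors. All SA tumors were far below the lowest WT penis, and SA replicate 3 held the most. Its log2 fold change was -4.05 (SE 0.355, adjusted p = 0.000102). The kinase itself, Mylk (NM_139300, chromosome 16, 34745199 to 35002436), was at 210, 189 and 247 CPM against 15.9, 19.9 and 28.6 CPM. It fell by 3.32 on the log2 scale with a smaller error than the others of the group (0.226, adjusted p = 1.33e-05). Ppp1r14a encodes CPI-17, which inhibits myosin phosphatase and so prolongs contraction. Its mean was 7.85 ± 0.968 CPM in WT penises and 1.24 ± 0.668 CPM in SA tumors (SD, n = 3 in both), and it fell by 2.60 on the log2 scale (adjusted p = 0.000751).

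Ppp1r12b, a targeting subunit of the phosphatase, was the gene of the motor group that did not pass. Its row with the highest count was at 6.83, 9.01 and 10.8 CPM in WT penises and 6.47, 3.67 and 5.60 CPM in SA tumors. The highest SA tumor lay just under the lowest WT penis, and the log2 fold change was -0.75 (SE 0.257, adjusted p = 0.0363). A noncoding transcript row of the same symbol, NR_015606, was at 5.74, 7.24 and 9.70 CPM against 0.557, 0.430 and 1.49 CPM, a log2 fold change of -3.05 (adjusted p = 0.000548). When all rows of a symbol were summed, Ppp1r12b passed with -1.43 (adjusted p = 0.00223). Such a sum can count a read more than once, since rows of a symbol often had nearly equal counts. The 2 rows of Myh11, for example, had means of 660.0 and 659.7 CPM in WT penises. Among the 15 genes with more than 1 row, Ppp1r12b had a range of 2.30 over its rows, and the others had 0.41 or less. Summing the rows changed the call of 1 more gene, Adra1b.

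Thin filament genes ranged from Cnn1, which was 39.4-fold lower, to genes that did not pass. Of 7, 5 were lower, 3 of them past both thresholds, and the median log2 fold change was -1.22. Cnn1 (NM_009922, chromosome 9, 22099221 to 22109221), the calponin of mature smooth muscle that damps the myosin ATPase, was at 105, 80.9 and 120.1 CPM in WT penises. In SA tumors it was at 0.483, 2.98 and 4.30 CPM. Its means differed 39.4-fold, and its log2 fold change of -5.18 (SE 0.622, adjusted p = 0.000723) was the lowest of the 38. Lmod1, a leiomodin that starts new actin filaments, was at 42.7, 41.4 and 49.0 CPM against 0.483, 2.12 and 3.31 CPM. It too was almost absent from SA replicate 1, and its log2 fold change was -4.37 (SE 0.529, adjusted p = 0.000589).

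Tagln (NM_011526, chromosome 9, 45929628 to 45936058), or SM22 alpha, an actin-binding protein of the calponin type, was at 234, 200.3 and 257 CPM in WT penises and 9.85, 23.3 and 22.5 CPM in SA tumors. The groups were far apart. Its log2 fold change was -3.63 (SE 0.330, adjusted p = 0.000112). Changes were smaller for Tpm2, the tropomyosin beta chain, and for Smtn, the smoothelin of contractile cells. Tpm2 went from 242 ± 32.4 to 104 ± 18.4 CPM (log2 fold change -1.22, adjusted p = 0.000297). Smtn went from 109 ± 7.15 to 62.8 ± 9.37 CPM (log2 fold change -0.79, adjusted p = 0.000942), and it missed the threshold with scaling by library totals (adjusted p = 0.0113).

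The remaining thin filament genes, Tpm1 and Cald1, are transcribed in many cell types from alternative starts and exons. Tpm1 was at 192, 160.2 and 199 CPM in WT penises and 202, 188 and 198 CPM in SA tumors. The ranges overlapped, and the log2 fold change was 0.09 (SE 0.108, adjusted p = 0.496). None of its 10 transcript rows passed, with log2 fold changes between -0.03 and 0.28. Cald1, the caldesmon gene, was at 115, 93.1 and 130.5 CPM against 104, 122 and 163 CPM, a log2 fold change of 0.20 (SE 0.184, adjusted p = 0.395).

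Dense bodies anchor thin filaments, and intermediate filaments tie the dense bodies together. Of 8 genes of this kind, 6 were lower, 4 of them past both thresholds, 1 was higher, and the median log2 fold change was -1.99. Des (NM_010043, chromosome 1, 75360292 to 75368579), the muscle intermediate filament desmin, was at 203, 158 and 229 CPM in WT penises and 2.45, 9.43 and 8.58 CPM in SA tumors. SA replicate 1 again held the least. The means differed 28.8-fold, and the log2 fold change was -4.82 (SE 0.496, adjusted p = 0.000312). Pdlim3 (NM_016798, chromosome 8, 45885487 to 45919635), a PDZ and LIM protein that binds alpha-actinin, was at 64.1, 64.3 and 78.2 CPM against 2.90, 4.54 and 6.06 CPM. It had the smallest adjusted p of the 38 (9.52e-06, log2 fold change -3.90, SE 0.252). Synpo2, an actin-bundling protein of muscle, went from 48.1 ± 13.3 to 6.02 ± 2.27 CPM (log2 fold change -2.97, adjusted p = 0.000213). Synm, the synemin that joins desmin filaments, went from 121 ± 7.11 to 22.7 ± 9.64 CPM (log2 fold change -2.41, adjusted p = 0.000742).

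Smaller decreases were found for the actin-binding gene Nexn, from 13.0 ± 2.71 to 4.34 ± 0.921 CPM (log2 fold change -1.58, adjusted p = 0.000576), and for the LIM protein gene Csrp1, from 404 ± 39.3 to 207 ± 5.08 CPM (log2 fold change -0.96, adjusted p = 0.000117). Flna encodes filamin A, an actin crosslinker of most cells. It was at 858, 956 and 1228 CPM in WT penises and 794, 777 and 953 CPM in SA tumors, so the highest SA tumor lay inside the WT range. Its log2 fold change was -0.27 (SE 0.156, adjusted p = 0.179). Pdlim7, also called enigma, is found in muscle and in many other cells. It was higher in all 3 SA tumors, at 60.3, 66.4 and 63.0 CPM against 45.8, 37.8 and 45.0 CPM (log2 fold change 0.56, SE 0.108, adjusted p = 0.00253). All 4 of its transcript rows were higher, by 0.57 to 0.90, but rows of a symbol can share reads. The call of Pdlim7 was lost without SA replicate 2 (adjusted p = 0.0106), WT replicate 2 (0.0213) or WT replicate 3 (0.0109).

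**Figure D2:**
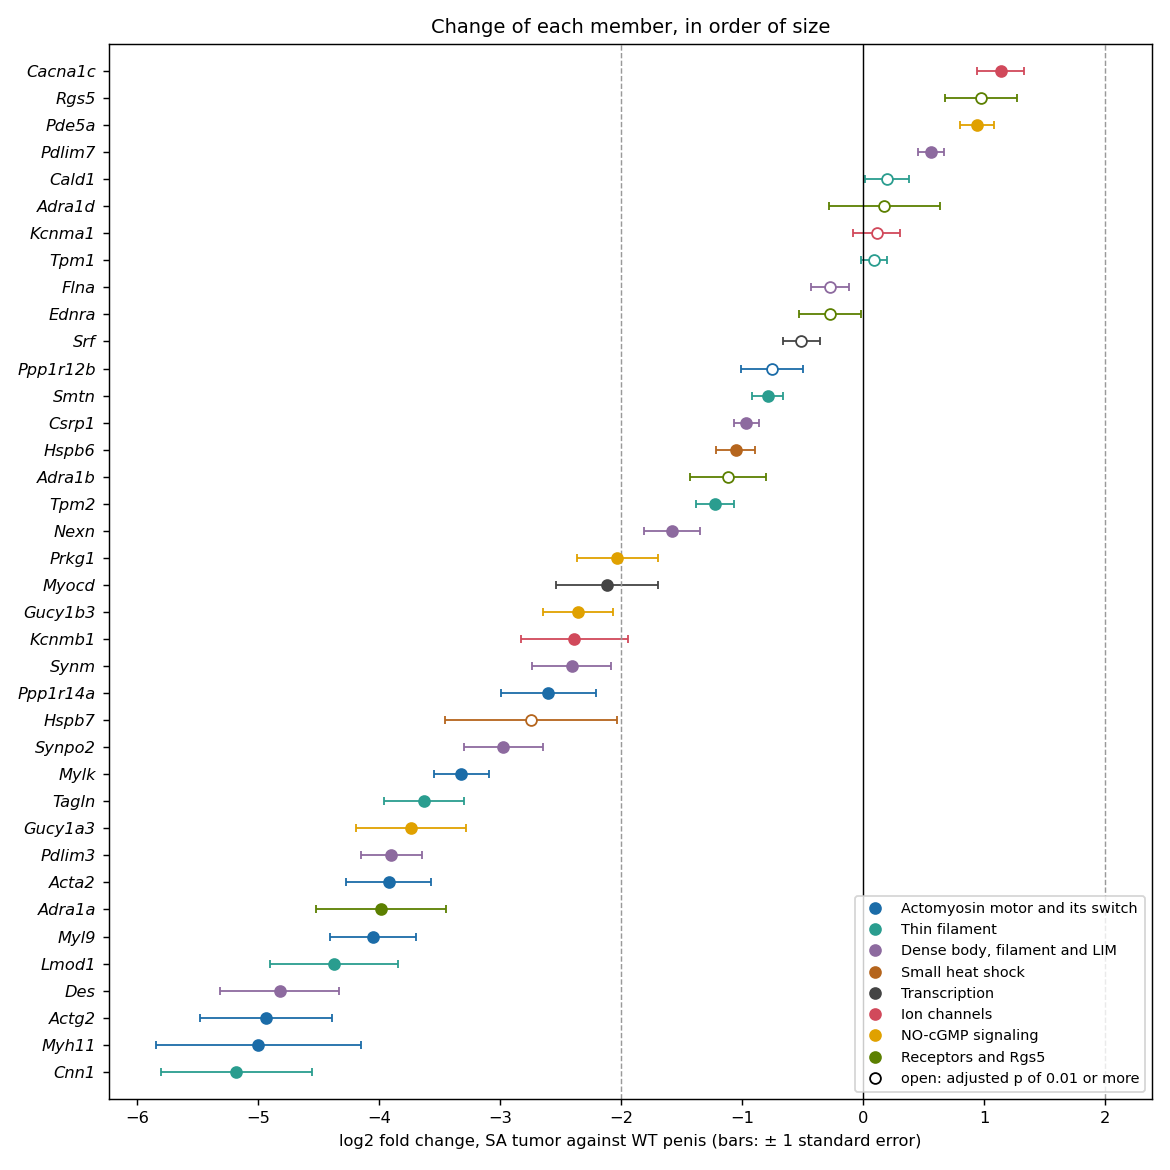
Log2 fold change of each of the 38 genes between SA tumors and WT penises, ordered by size, with bars of 1 standard error, colors for the role of the gene, and open points where the adjusted p-value was 0.01 or more. Cnn1 lies lowest at -5.18 and Cacna1c highest at 1.14, and dashed lines mark a log2 fold change of 2 in size.

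Both small heat shock genes on the list are abundant in muscle. Hspb6 encodes HSP20, a target of protein kinase G that relaxes smooth muscle when phosphorylated. It was at 15.6, 16.4 and 15.6 CPM in WT penises and 6.09, 8.44 and 8.40 CPM in SA tumors, without overlap (log2 fold change -1.05, SE 0.163, adjusted p = 0.000816). Hspb7 was at 25.4, 22.4 and 33.4 CPM against 0.483, 5.79 and 5.51 CPM. Its SA tumors were also all below the WT penises, but its log2 fold change of -2.74 (SE 0.710) had an adjusted p of 0.0184. The call depended on SA replicate 1 and on the test used. Without that replicate the log2 fold change was -2.27 and the adjusted p 4.81e-05. With it kept, Hspb7 passed with DESeq2 (adjusted p = 0.00541) and with limma-voom (adjusted p = 0.00458).

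Of the transcription factors, Myocd, the myocardin that is largely restricted to smooth and cardiac muscle, was at a low level throughout. Its values were 1.94, 3.54 and 6.06 CPM in WT penises and 0.706, 0.927 and 0.983 CPM in SA tumors. The WT penises varied more than the SA tumors and all lay above them. The log2 fold change was -2.12 (SE 0.421, adjusted p = 0.00310), and the call was lost without SA replicate 2 (adjusted p = 0.0134). Srf, which is expressed in most cells, was at 69.8, 75.6 and 104 CPM against 56.8, 57.0 and 61.5 CPM. Its log2 fold change of -0.51 (SE 0.151, adjusted p = 0.0209) did not pass, though it did with DESeq2. Of 7 other cofactors and regulators of serum response factor, 1 was lower and 1 was higher, where 17.5% and 20.1% of all genes tested were.

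Ion channels of the list moved in different directions. Cacna1c (NM_001256002, chromosome 6, 118587240 to 119197384), the pore of the L-type calcium channel through which calcium enters smooth muscle and other excitable cells, was higher in SA tumors. Its levels were 18.4, 23.0 and 28.2 CPM in WT penises and 42.0, 48.6 and 62.2 CPM in SA tumors. The groups did not overlap, and the log2 fold change was 1.14 (SE 0.194, adjusted p = 0.00138). All 11 of its transcript rows were higher, but their counts were nearly equal, so the rows are not separate measurements.

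Kcnma1 and Kcnmb1 form the large-conductance potassium channel that calcium opens and that limits contraction, with Kcnma1 as the pore and Kcnmb1 as the subunit typical of smooth muscle. Kcnma1 was at 8.14, 9.45 and 12.2 CPM in WT penises and 12.0, 9.10 and 11.0 CPM in SA tumors, a log2 fold change of 0.11 (SE 0.191, adjusted p = 0.649). None of its 22 rows passed. Kcnmb1 was at 3.30, 4.11 and 5.47 CPM against 0.334, 0.662 and 1.28 CPM. All SA tumors were below all WT penises, with a log2 fold change of -2.39 (SE 0.444, adjusted p = 0.00216), and the call was lost without SA replicate 2 (adjusted p = 0.0122). Kcnmb4, a subunit of the same channel that is known best from brain, rose from 4.66 ± 1.63 to 24.2 ± 5.67 CPM (log2 fold change 2.38, adjusted p = 0.000153). Per transcript length, Kcnmb1 made up 10.8%, 19.7% and 27.5% of the summed TPM of Kcnmb1 and Kcnmb4 in WT penises and 0.261%, 0.735% and 1.48% in SA tumors.

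Of the 4 listed genes of nitric oxide and cyclic GMP signaling, 3 had lower RNA levels in SA tumors, and the phosphodiesterase gene had a higher one. Gucy1a3 (now Gucy1a1, NM_021896, chromosome 3, 82092427 to 82145946) and Gucy1b3 (now Gucy1b1, chromosome 3, 82032004 to 82074711) encode the main alpha and beta subunits of soluble guanylate cyclase and lie next to each other. Gucy1a3 was at 16.2, 16.2 and 17.0 CPM in WT penises and 0.372, 1.03 and 1.97 CPM in SA tumors. The WT penises were nearly alike, while the SA tumors differed among themselves, with replicate 1 again lowest. Its log2 fold change was -3.74 (SE 0.454, adjusted p = 0.000320). Gucy1b3 was at 6.87, 6.48 and 9.39 CPM against 1.15, 1.16 and 1.98 CPM (log2 fold change -2.35, SE 0.291, adjusted p = 0.000244). Prkg1, the protein kinase G of smooth muscle, was at 6.37, 8.38 and 11.1 CPM against 1.75, 1.39 and 3.00 CPM (log2 fold change -2.03, SE 0.334, adjusted p = 0.00113).

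Pde5a (NM_153422, chromosome 3, 122729158 to 122859374), the phosphodiesterase that breaks down cyclic GMP and is the target of sildenafil, went the other way. It was at 25.3, 30.2 and 35.1 CPM in WT penises and 63.6, 52.2 and 58.7 CPM in SA tumors. The lowest SA tumor was well above the highest WT penis, and the log2 fold change was 0.95 (SE 0.141, adjusted p = 0.000661). Neither Pde5a nor Cacna1c lost its call when any library was left out.

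Of 11 other genes of this pathway tested, 3 were lower, 2 were higher and 6 did not pass, where 17.5% of all genes were lower and 20.1% were higher. Mrvi1, which encodes IRAG, the substrate through which protein kinase G restrains calcium release, was at 45.3, 52.8 and 71.4 CPM in WT penises and 1.64, 3.11 and 6.62 CPM in SA tumors (log2 fold change -3.81, SE 0.491, adjusted p = 0.000788). Prkg2, the other protein kinase G gene, was more abundant than Prkg1 and did not pass. It was at 42.2, 34.0 and 30.4 CPM in WT penises and 36.8, 24.6 and 38.4 CPM in SA tumors (log2 fold change -0.09, SE 0.192, adjusted p = 0.712). Gucy1a2, the alternative alpha subunit of the cyclase, was at 0.723, 1.202 and 1.503 CPM against 30.06, 15.03 and 19.09 CPM, and its direction was opposite to that of Gucy1a3 (log2 fold change 4.22, SE 0.347, adjusted p = 2.91e-05). Of the summed TPM of both alpha subunits, Gucy1a3 held 98.5%, 97.5% and 97.1% in WT penises and 3.52%, 16.8% and 23.3% in SA tumors. Nos1, the neuronal nitric oxide synthase, had 1 count in each WT library, under the floor, and 2.19, 2.05 and 4.48 CPM in the SA tumors (adjusted p = 6.42e-05). The more abundant synthase gene Nos3 was at 30.9, 24.0 and 21.4 CPM in WT penises and 10.2, 12.1 and 18.1 CPM in SA tumors. Its log2 fold change of -0.91 just missed the threshold (adjusted p = 0.0106). Nos2, with a log2 fold change of 1.35, did not pass either (adjusted p = 0.0492).

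Of the 5 genes in the receptor group, 1 was lower and 4 did not pass, where 17.5% of all genes tested were lower. The median log2 fold change of the group was -0.27. The gene that fell was Adra1a, an alpha-1 adrenergic receptor through which noradrenaline contracts smooth muscle. It was at 2.53, 3.44 and 4.01 CPM in WT penises and at 0.0372, 0.0993 and 0.341 CPM in SA tumors, where replicates 1 and 2 had 1 and 3 counts. Its fitted log2 fold change was -3.98 (SE 0.541, adjusted p = 0.000404). The related Adra1b was at 3.89, 3.77 and 4.19 CPM against 2.38, 2.12 and 1.11 CPM, without overlap (log2 fold change -1.11, SE 0.315, adjusted p = 0.0171). It passed without SA replicate 1 (-1.35, adjusted p = 0.00927), with DESeq2, with limma-voom and with its rows summed (adjusted p = 0.00999). Adra1d, the third of the family, was low in both groups, at 1.11 ± 0.309 and 1.23 ± 0.653 CPM, and its groups overlapped (log2 fold change 0.18, SE 0.460, adjusted p = 0.770).

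Ednra, the endothelin receptor of smooth muscle, was at 29.8, 33.8 and 33.4 CPM in WT penises and 20.2, 20.3 and 39.4 CPM in SA tumors. SA replicate 3 was above all WT penises and the other SA tumors were below them. The log2 fold change was -0.27 (SE 0.257, adjusted p = 0.401), and without SA replicate 3 it was -0.68 (adjusted p = 0.00214). Its ligand gene Edn1 fell from 35.9 ± 2.56 to 7.89 ± 0.283 CPM (log2 fold change -2.19, adjusted p = 3.43e-06). Rgs5, a regulator of G protein signaling found in pericytes and arterial smooth muscle, was at 7.23, 7.38 and 12.8 CPM against 17.9, 12.2 and 23.4 CPM. The lowest SA tumor lay just under the highest WT penis, and the log2 fold change of 0.97 (SE 0.297, adjusted p = 0.0242) did not pass. It passed without WT replicate 3 (1.27, adjusted p = 0.00763) with replicate number as a block (adjusted p = 0.00362), with DESeq2 and with library totals. Of 14 further receptor genes and partners tested, 3 were lower, among them the muscarinic receptor gene Chrm3 (log2 fold change -1.35, adjusted p = 0.000545), and 1 was higher. Of all genes tested, 17.5% were lower and 20.1% were higher.

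Beyond the 38, a wider list of 80 genes of contraction and its signaling was read alongside. Of 79 tested, 25 were lower and 10 were higher, with a median log2 fold change of -0.39, and 8 and 5 passed both thresholds. The shares of all genes tested, to be set beside these and the counts below, were 17.5% lower and 20.1% higher. Past both thresholds they were 3.59% and 9.41%. Among 13 calcium genes, 4 were lower and 3 were higher. Jph2, which holds the store membrane near the cell surface, fell from 29.7 ± 5.18 to 4.12 ± 1.25 CPM (log2 fold change -2.82, adjusted p = 3.74e-05). The cation channel gene Trpc6 rose from 1.06 ± 0.165 to 5.92 ± 2.27 CPM (log2 fold change 2.50, adjusted p = 0.000368). Of 22 further dense plaque genes, 10 were lower and 3 were higher. Itga8, an integrin of smooth muscle and mesenchyme, fell from 59.9 ± 14.1 to 4.79 ± 2.59 CPM (log2 fold change -3.59, adjusted p = 0.000282). Itga1, a collagen-binding integrin, rose from 7.69 ± 1.23 to 78.8 ± 31.4 CPM (log2 fold change 3.36, adjusted p = 6.18e-05).

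Several of the 38 genes have paralogs that are expressed beyond smooth muscle. Of 21 such paralogs, 4 were lower, 2 were higher and 15 did not pass, with a median log2 fold change of 0.04. Among all genes tested, 17.5% were lower and 20.1% were higher. The nonmuscle myosin gene Myh9 was at 483 ± 39.3 CPM in WT penises and 519 ± 92.6 CPM in SA tumors (log2 fold change 0.10, adjusted p = 0.569). Myh10, another nonmuscle myosin, rose from 27.5 ± 4.07 to 59.99 ± 8.21 CPM (log2 fold change 1.13, adjusted p = 0.000313). The beta-actin gene Actb was at 1531 ± 30.9 and 1472 ± 94.6 CPM (log2 fold change -0.06, adjusted p = 0.672), and its sign turned with upper quartile scaling and with library totals. Both Actg1, the other nonmuscle actin, and Myh14, another nonmuscle myosin, were lower. Actg1 fell from 967 ± 56.1 to 658 ± 78.7 CPM (log2 fold change -0.56, adjusted p = 0.00457), a call lost without SA replicate 1, SA replicate 2, WT replicate 2 or WT replicate 3 (adjusted p = 0.0146 to 0.0226). Myh14 fell from 227 ± 13.6 to 136 ± 36.4 CPM (log2 fold change -0.74, adjusted p = 0.00784), a call lost when any library other than SA replicate 2 was left out (adjusted p = 0.0159 to 0.0352). Upper quartile scaling and library totals also ended both calls. Another paralog that fell was Hspb1, the small heat shock gene abundant in epithelium, from 1649 ± 205 to 314 ± 12.4 CPM (log2 fold change -2.39, adjusted p = 3.35e-06).

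Within families, the smooth muscle form went from a large share to a small one. Myh11 made up 47.6%, 45.6% and 53.2% of the summed TPM of Myh9, Myh10, Myh11 and Myh14 in WT penises, and 0.539%, 3.13% and 4.82% in SA tumors. Acta2 and Actg2 together made up 17.0% ± 2.28 of the actin TPM (with Actb and Actg1) in WT penises and 1.34% ± 0.526 in SA tumors (SD, n = 3 each). Cnn1 held 31.0% ± 3.34 of the calponin TPM and then 0.991% ± 0.690, and Tagln held 46.1% ± 2.05 of Tagln and Tagln2 and then 5.31% ± 2.01. These shares need no scaling between libraries. The tropomyosins differed from this pattern, since Tpm1 and Tpm2 held 39.2% ± 2.56 of Tpm1 to Tpm4 in WT penises and 36.2% ± 0.523 in SA tumors. With 3 samples a group, an exact two-sided permutation test of any such share cannot go below p = 0.1.

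**Figure D3:**
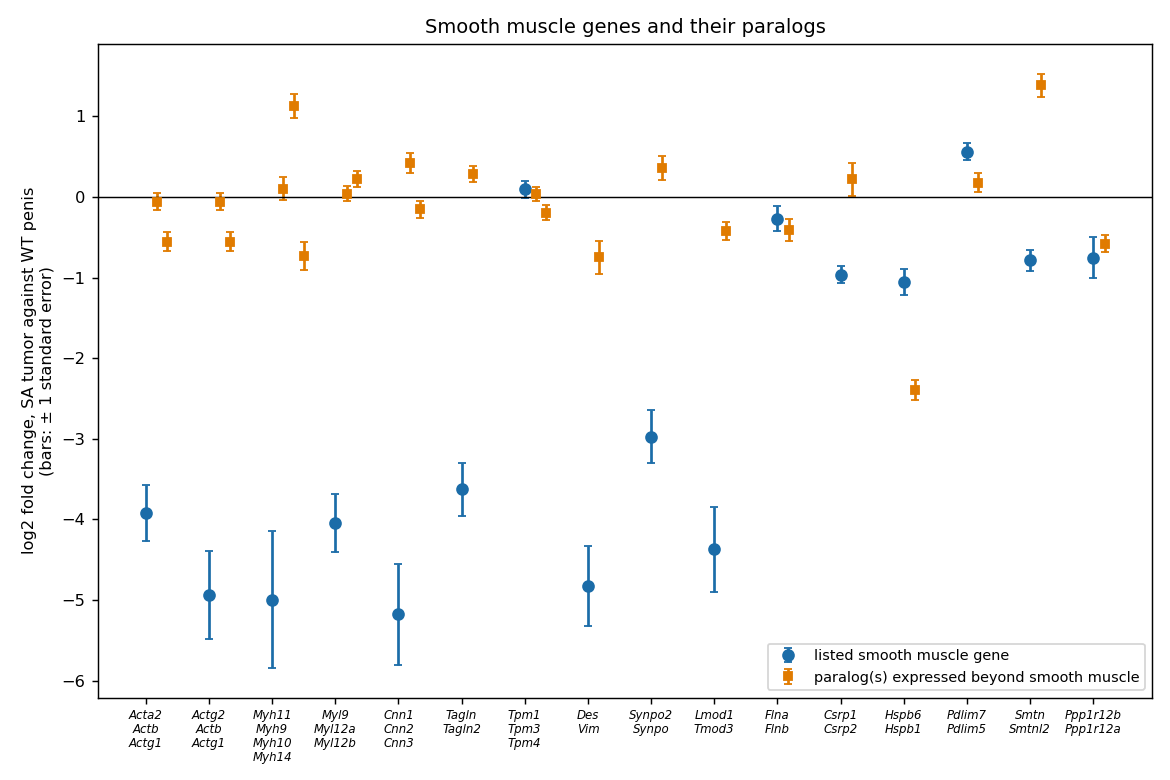
Log2 fold changes between SA tumors and WT penises of smooth muscle genes (blue circles) and of the paralogs written under each (orange squares), with bars of 1 standard error. Myh11, Cnn1, Tagln, Myl9, Acta2 and Actg2 lie between -5.18 and -3.63 and most of their paralogs lie near 0.

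The order of levels within the list changed with these differences. In WT penises the highest levels in TPM were those of Myl9 (343.6 ± 46.5), Csrp1 (313 ± 30.05) and Acta2 (286 ± 37.5), whose SD ranges overlapped, followed by Tagln (199.7 ± 30.1) and Flna (167 ± 40.9). In SA tumors Csrp1 (208 ± 11.7 TPM) and Tpm1 (204 ± 13.8 TPM) were highest and did not differ beyond their spread. Myl9 had moved from rank 1 to rank 8 of 38, Myh11 from 7 to 17 and Cnn1 from 11 to 28. The genes at ranks 1 to 3 in SA tumors, Csrp1, Tpm1 and Flna, are expressed in many cell types.

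The SA tumors differed from each other in most genes of the list, though not in all in the same order. SA replicate 1 was the lowest of the 3 SA tumors in 29 of the 38 genes, and SA replicate 3 was the highest in 26. SA replicate 1 was the highest in 5, among them Pde5a and Kcnma1. Over all 16336 genes these shares were 32.7% and 35.8%. The median deviation of the 38 genes from the mean of their group, on the log2 scale, was -0.34 in SA replicate 1, 0.07 in SA replicate 2 and 0.45 in SA replicate 3. Leaving out SA replicate 3 moved 7 called genes by more than 1.5-fold, to log2 fold changes of -5.63 for Actg2, -5.75 for Myh11, -5.84 for Cnn1, -5.05 for Lmod1, -3.08 for Kcnmb1, -4.52 for Gucy1a3 and -5.48 for Adra1a. Among WT penises, replicate 3 was the highest in 29 of the 38, against 34.6% of all genes. The genes share their libraries, so these counts describe the 6 samples.

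Markers of other cell types of the penis moved in both directions beside the smooth muscle genes, and their part in the result was not tested. Summed over 8 endothelial markers, levels were 486 to 516 CPM in WT penises and 218 to 352 CPM in SA tumors, with SA replicate 1 lowest and replicate 3 highest, and 4 of 8 markers were lower. Pericytes line small vessels and share genes with smooth muscle. Their 6 markers summed to 391 to 459 CPM in WT penises and 254 to 418 CPM in SA tumors, which overlapped, and 2 were lower and 1 was higher. Cspg4, the NG2 proteoglycan of pericytes, fell from 114 ± 6.83 to 33.4 ± 1.61 CPM (log2 fold change -1.77, adjusted p = 3.70e-06). Pdgfrb, a receptor of pericytes and fibroblasts, was at 74.8 ± 3.33 and 147 ± 59.6 CPM, a log2 fold change of 0.98 that did not pass (adjusted p = 0.0214) but did without SA replicate 1 (1.24, adjusted p = 0.000213), with DESeq2 (adjusted p = 0.000523) and with library totals (0.00670). The 6 nerve and Schwann cell markers summed to 207 to 242 CPM in WT penises and 85.3 to 94.4 CPM in SA tumors, and 4 were lower and 1 was higher.

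Fibroblast markers summed to 6192 to 6466 CPM in WT penises and to 1534, 3947 and 4998 CPM in SA replicates 1, 2 and 3, and 1 of 7 was lower and 1 was higher. Activated fibroblast markers summed to 1312 to 1437 CPM and to 813, 1027 and 1247 CPM, with 2 of 6 lower and 3 higher. SA replicate 1 thus also held the least fibroblast RNA by these lists. The 8 keratinocyte markers summed to 33005 to 37418 CPM in WT penises and 18425 to 20572 CPM in SA tumors (4 lower, 1 higher). The 5 leukocyte markers summed to 48.7 to 75.9 CPM and 73.4 to 213 CPM, with 1 higher. Of the 13 skeletal muscle markers, which could carry in muscle genes from around the penis, 9 passed the filter, and 2 were lower and 2 were higher, the latter both past both thresholds from at most 3 counts in a WT library. All 13 summed to no more than 35.3 CPM in any library. Ckm, the muscle creatine kinase, was at 5.56 ± 0.706 CPM in WT penises and 0.384 ± 0.192 CPM in SA tumors, and Myh4, the fast myosin, had 0 counts in every WT library. The 6 cartilage and bone markers summed to 10.7 to 25.9 CPM in any library, and of 4 tested, 2 were higher and 1 was lower, all past both thresholds. Of the 5 adipocyte markers, Adipoq, Plin1, Lep and Cidec were at or near 0. The remaining one, Fabp4, which other cell types also express, rose from 3.64 ± 0.740 to 126 ± 5.27 CPM (log2 fold change 5.11, adjusted p = 6.54e-07).

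**Figure D4:**
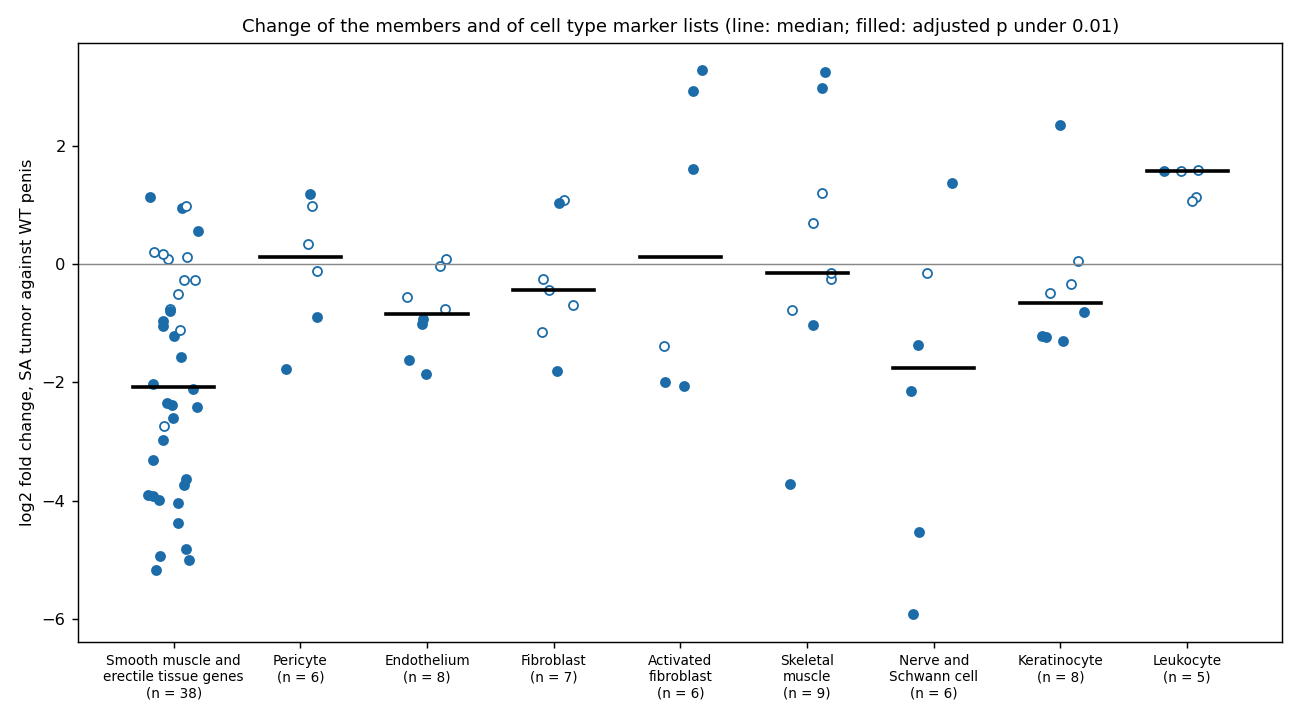
Points are log2 fold changes between SA tumors and WT penises for the 38 genes and for tested marker genes of other cell types. They are filled where the adjusted p-value was under 0.01, and a line marks the median of each list. Cartilage and bone markers and adipocyte markers are not drawn. The median of the 38 genes is -2.07, those of pericyte and endothelial markers are 0.12 and -0.84, and that of nerve and Schwann cell markers is -1.76.

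Of the 24 genes called lower, 20 stayed below an adjusted p of 0.01 in each of the 14 alternatives that test against no change, the exceptions being Myh11, Myocd, Kcnmb1 and Smtn, and none changed direction. Of the 38 genes, 4 share an exon with another gene on the same strand and 11 are overlapped on the opposite strand (GENCODE M21), and the strand setting of the counting is not given in the sources used here.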

How the data were processed

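RNA of 3 SA tumors and 3 WT penises was measured. Per the methods and labels, the authors used TopHat for alignment to mm10, FastQC for quality and HTSeq for counting, and versions, the annotation release and the strand setting are not given in the sources used here. The deposited files hold raw counts for each RefSeq transcript. The FPKM and TPM values that the authors deposited come from the same counts, and TPM was used here only to compare levels between genes.

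Each of 24063 symbols was represented by its transcript row with the highest mean count. The 38 genes and the other lists were chosen with earlier results of these data known. The test was run in edgeR 4.0.16 (R 4.3.3), with filterByExpr (at least 10 counts scaled to the median library, or 0.380 CPM, in 3 samples, total 15), TMM, and the quasi-likelihood F-test (robust) with Benjamini-Hochberg adjustment over all 16336 genes. Calls use an adjusted p-value under 0.01, and the second threshold is a log2 fold change of 2 in size. Signs are SA minus WT. CPM is TMM-normalized. Replicates came from separate mice and were not identical. The genes named are the 38 and genes of the lists, and the counts of 1 group within the wider list are not reported here. The scripts were tested on simulated data. The 15 alternatives were DESeq2 1.42.0 (the tool of the authors), limma-voom (limma 3.58.1), 3 other scalings, no filter, glmTreat, a replicate block, summed transcript rows and each library left out.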

Additional observations from a re-analysis of the deposited data

How the results depend on the processing

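Across the 15 alternatives the count of lower genes lay between 16 (glmTreat against a log2 fold change of 1) and 27 (DESeq2), against 24. Scaling by library totals gave a median log2 fold change of -1.79, where all genes had 0.31. Under glmTreat the count of higher genes was 0. With 1 library left out, the counts were 21 to 26 lower, 2 to 3 higher, 15 to 19 lower past both thresholds and 0 higher past both, and the median lay between -2.34 (without SA replicate 3) and -1.75 (without WT replicate 3). The replicate numbers did not pair the samples: residuals of same-numbered samples correlated at -0.13, -0.10 and 0.02 across genes. With the replicate block 23 genes were lower, 4 higher, 18 lower and 0 higher past both thresholds, and the median was -2.08. Genes that did not pass changed sign near 0. With library totals Actb had 0.23, Flna 0.014 and Ednra 0.014, and with upper quartile scaling Actb had 0.0046. With 1 library left out, Cald1 ranged from -0.000774 to 0.33, Adra1d from -0.13 to 0.52, Myh9 from -0.048 to 0.20, Kcnma1 from -0.022 to 0.26 and Tpm1 from -0.016 to 0.13. The cause was not tested. Genes near the floor, such as Adra1a, are limited by depth in SA replicates 1 and 2.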
